A study of Homo sapiens with 9 samples.

Results

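The 10 genes described here form the NRF2 and KEAP1 system and a set of its glutathione and thioredoxin targets: NFE2L2, KEAP1, SLC7A11, GCLC, GCLM, GSR, TXNRD1, SRXN1, NQO1 and OSGIN1. They were picked by symbol, were all found among the 24344 genes of the count table, and all 10 were among the 14195 genes that passed the filter on low counts. Expression was measured in MDA-MB-231, a triple-negative human breast adenocarcinoma line, by unstranded paired-end RNA sequencing. Cells of the same line had been exposed for 48 h to 1 of 3 herbal injections: Compound Kushen Injection (CKI, 2.0 mg/mL), which combines the herbs Kushen and Baituling, Kushen injection alone at the matching ratio, or Baituling injection alone at the matching ratio. Each injection had 3 libraries, and the comparisons set CKI beside each single herb and the single herbs beside each other. Untreated libraries were not analysed here, so every difference is between injections and has no untreated baseline. A rise or fall below means only higher or lower than after the other injection.

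NRF2, the protein of NFE2L2, is a transcription factor that turns on genes against oxidants and reactive chemicals. KEAP1 binds NRF2 and hands it to a CUL3 ubiquitin ligase for destruction, and modification of KEAP1 cysteines by reactive molecules lets newly made NRF2 reach the nucleus. There it pairs with a small MAF protein on a DNA element called the antioxidant response element (ARE). Because control is mostly at the level of the protein, the mRNA of NFE2L2 or KEAP1 need not follow the activity of the pathway, which is usually read from its target mRNAs.

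The DNA before the start sites of the members is shown because the ARE is the element through which NRF2 acts. RefSeq promoter windows (build GRCh38.p14, not the build of the counts) ran from 250 bases before to 50 bases after a start site, and 8 of the 10 members had such windows, 11 in all. SLC7A11 and GSR had none. Each window was searched on both strands for the ARE core TGACNNNGC, for the AP-1 element TGANTCA, whose first bases overlap those of the ARE core, and for GCGTG, the core bound by the aryl hydrocarbon receptor. The ARE core was present for GCLM, TXNRD1 and KEAP1, that is 3 of 8 members, against 16.1% of the 27305 genes with windows. The 250 bases before the start of GCLM (chr1:93909431-93909680, minus strand), of the second window of TXNRD1 (chr12:104286782-104287031, plus strand) and of the second window of KEAP1 (chr19:10502772-10503021, minus strand) are printed 5′ to 3′ with the ARE core in capitals. OSGIN1 (chr16:83952990-83953239, plus strand) is printed with its AP-1 match in capitals, as the only one of the 8 members with that element.
GCLM: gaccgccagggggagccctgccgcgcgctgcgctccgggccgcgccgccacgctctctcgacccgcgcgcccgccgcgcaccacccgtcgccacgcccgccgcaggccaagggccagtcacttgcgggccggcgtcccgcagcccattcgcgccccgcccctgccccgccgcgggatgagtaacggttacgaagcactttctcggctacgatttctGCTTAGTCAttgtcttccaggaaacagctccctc
TXNRD1: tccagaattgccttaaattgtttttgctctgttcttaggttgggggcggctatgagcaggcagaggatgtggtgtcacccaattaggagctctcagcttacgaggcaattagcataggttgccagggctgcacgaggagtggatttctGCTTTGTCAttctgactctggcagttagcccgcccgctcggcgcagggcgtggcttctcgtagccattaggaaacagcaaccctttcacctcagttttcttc
KEAP1: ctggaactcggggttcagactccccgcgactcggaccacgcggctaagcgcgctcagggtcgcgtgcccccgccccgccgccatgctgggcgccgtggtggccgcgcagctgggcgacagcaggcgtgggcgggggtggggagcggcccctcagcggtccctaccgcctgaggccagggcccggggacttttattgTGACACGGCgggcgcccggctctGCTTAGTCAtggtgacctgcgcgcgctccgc
OSGIN1: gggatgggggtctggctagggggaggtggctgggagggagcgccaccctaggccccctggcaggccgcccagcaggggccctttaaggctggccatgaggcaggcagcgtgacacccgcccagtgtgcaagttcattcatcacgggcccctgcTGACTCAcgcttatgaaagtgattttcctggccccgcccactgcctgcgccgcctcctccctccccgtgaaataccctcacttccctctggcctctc

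The match in GCLM began 34 bases before the start on the minus strand of the window, and KEAP1 held the same 9 letters, GCTTAGTCA, from 31 bases before its start. KEAP1 had another match on the plus strand from 54 bases before the start. In the printed TXNRD1 window the match lay 102 bases before the start, and the other TXNRD1 window held matches from 99 and 8 bases before its start. The AP-1 element was found for 1 of 8 members against 9.37% of genes, and the receptor core GCGTG for 8 of 8 against 40.6%. The windows of the members were rich in G and C, with a median of 70.0% (range 53.7% to 80.0%) against 58.7% over all 35116 windows. A match is a description of letters in these windows only.

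The targets split the injections sharply. All 8 target genes were higher after CKI than after Baituling and higher after Kushen than after Baituling, while CKI and Kushen differed by at most 0.28 on the log2 scale. Summed over the 8 targets, the expression was 2017, 1980 and 2016 CPM (counts relative to the size of the library, corrected with TMM factors) in the 3 CKI libraries and 2259, 2287 and 2171 CPM in the Kushen libraries. In the Baituling libraries it was 751, 773 and 752 CPM. The groups did not overlap, and Kushen, not CKI, was highest. TXNRD1 makes up more of this sum than the other 7 targets together, so the sum mostly follows that gene.

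**Figure D1:**
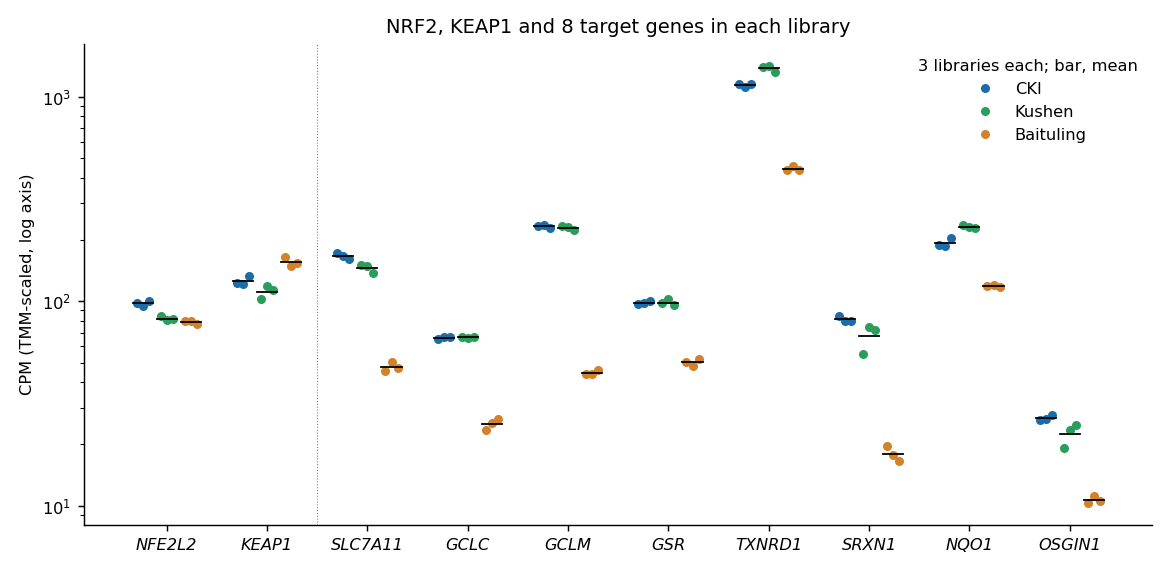
Expression of the 10 genes in each library, in TMM-scaled CPM on a log axis, with 1 point per library (3 libraries per injection) and a bar at the group mean. For each of the 8 targets right of the dotted line the 3 Baituling points lie below all CKI and Kushen points, whereas NFE2L2 shows little difference between Kushen and Baituling and KEAP1 is highest after Baituling.

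Counts of the whole table set the background for these statements. Total counts per library ran from 20144628 to 23782071, and every member had at least 191 counts in every library. With edgeR's quasi-likelihood test, 5 members were higher and 2 were lower in CKI than in Kushen at an adjusted p under 0.05, where 19.6% and 20.2% of the 14195 genes tested were. The same 7 members had an unadjusted p under 0.05. Past a log2 fold change of 1 as well, which is what "called" means here, edgeR and DESeq2 both found 0 members, against 1.70% of genes called higher and 0.197% called lower. In CKI against Baituling 9 members were higher and 1 was lower by adjusted p (39.1% and 37.0% of genes), and 6 were called higher and 0 lower (11.2% and 7.91%). In Kushen against Baituling 8 were higher and 1 was lower by adjusted p (35.6% and 36.1%), and 6 were called higher and 0 lower (8.50% and 6.73%). All 3 libraries of a group lay on one side of the other group for 7 members in CKI against Kushen (49.5% of genes). It was so for 10 members when Baituling was set against CKI (78.3%) and for 10 when it was set against Kushen (73.1%). The median log2 fold change of the 8 targets was 0.012, 1.38 and 1.5 in these comparisons, and that of all genes 0.008, 0.034 and 0.018. The 3 comparisons share libraries and are therefore not independent of each other.

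Among replicates, Kushen replicate 1 stood farthest from its group, with a chi-square per gene of 6.51 and 6.85 to the other Kushen libraries against 1.70 to 4.42 in the remaining pairs, and member values that it moves most are also given without it. The scale matters for small differences from Baituling. TMM factors were 0.877 to 0.899 for Baituling and 1.024 to 1.099 for the other 6 libraries. Scaling by library totals alone shifted the median over all genes upward on the log2 scale, by 0.075 for CKI relative to Kushen, by 0.287 for CKI relative to Baituling and by 0.212 for Kushen relative to Baituling. The share of called genes that were higher then went from 58.6% to 80.0% for CKI and from 55.8% to 74.6% for Kushen, each set against Baituling. The line was checked against markers: VIM ran from 336 to 2120 CPM and CD44 from 605 to 907, ESR1 and PGR reached at most 0.177 CPM, and the leukocyte marker PTPRC at most 0.386. EPCAM (6.93 to 13.8 CPM) and CDH1 (0.443 to 2.82 CPM) were low, and ERBB2 ran from 55.6 to 105 CPM. In bulk RNA, fewer expressing cells and less RNA per cell cannot be told apart.

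NFE2L2 (chromosome 2, 178095036 to 178129455 on GRCh37, minus strand) encodes NRF2 itself. Its expression was 97.4, 94.8 and 99.8 CPM after CKI, 84.2, 80.7 and 81.4 CPM after Kushen and 79.7, 79.6 and 77.0 CPM after Baituling. The 3 CKI libraries were above all others, and the Kushen and Baituling libraries were close to each other without overlapping. The log2 fold change was 0.25 ± 0.04 (SE, n = 3 per group) against Kushen with an edgeR adjusted p of 0.000167, and 0.31 ± 0.04 against Baituling with an edgeR adjusted p of 3.41e-06. Kushen against Baituling gave 0.06 (95% interval -0.03 to 0.15, edgeR adjusted p = 0.236). The difference of CKI from Baituling was 0.59 with library totals. Kushen against Baituling passed when the scale was changed, with 0.27 under library totals (adjusted p = 1.91e-05) and 0.13 under the upper quartile (adjusted p = 0.0146). A non-coding gene, ENSG00000222043, overlaps exons of NFE2L2 on the opposite strand, and unstranded reads of the pair cannot be told apart.

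KEAP1 (chromosome 19, 10596801 to 10614032, minus strand), the sensor that holds NRF2 back, was the only member that was highest after Baituling. The Baituling libraries held 163, 149 and 153 CPM, the CKI libraries 122, 122 and 132 CPM and the Kushen libraries 102, 118 and 113 CPM. The groups did not overlap in this order. The log2 fold change was -0.48 ± 0.05 in Kushen against Baituling (edgeR adjusted p = 1.79e-07) and -0.31 ± 0.05 in CKI against Baituling (edgeR adjusted p = 4.07e-05). With library totals the first stayed past the threshold at -0.27, and the second shrank to -0.02 (adjusted p = 0.722). CKI was above Kushen by 0.17 ± 0.05 (edgeR adjusted p = 0.0165), a difference that no longer passed without Kushen replicate 1 (0.11, adjusted p = 0.081) or without CKI replicate 3 (0.13, adjusted p = 0.0968).

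The 4 glutathione genes cover uptake of its building block, synthesis and recycling. SLC7A11 (chromosome 4, 139085251 to 139163503, minus strand), the cystine-glutamate antiporter subunit that supplies cysteine, was at 171, 167 and 161 CPM after CKI and 149.9, 148 and 137 CPM after Kushen. After Baituling it was at 45.8, 50.1 and 47.1 CPM. All 3 groups were apart, in the order CKI, Kushen, Baituling. The difference was 3.49-fold between CKI and Baituling (log2 1.80 ± 0.05, edgeR adjusted p = 1.36e-16) and 3.04-fold between Kushen and Baituling (log2 1.60 ± 0.05, edgeR adjusted p = 1.3e-15). CKI exceeded Kushen by a log2 of 0.20 ± 0.05 (edgeR adjusted p = 0.00196). The antisense gene SLC7A11-AS1 had at most 15 counts in any library, against at least 853 for SLC7A11. Unstranded reads of the exons they share cannot be told apart, so these counts set no bound on antisense reads.

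GCLC and GCLM encode the catalytic and the modifier subunit of glutamate-cysteine ligase, which makes the first and rate-limiting step of glutathione synthesis. GCLM (chromosome 1, 94350755 to 94374986, minus strand) had the largest difference of the 10 genes. It was at 232, 237 and 229 CPM after CKI and 232, 231 and 223 CPM after Kushen, with overlapping libraries, and at 44, 44 and 45.9 CPM after Baituling. That is 5.21-fold higher in CKI than in Baituling (log2 2.38 ± 0.05, edgeR adjusted p = 6.81e-19) and 5.13-fold higher in Kushen (log2 2.36 ± 0.05, edgeR adjusted p = 1.66e-18). By the size of the rise GCLM was number 306 of the 14195 genes in the first comparison and number 196 in the second.

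GCLC (chromosome 6, 53362139 to 53409899, minus strand) rose by less. Its expression was 65.3, 66.7 and 66.5 CPM after CKI, 66.8, 66.0 and 66.5 CPM after Kushen and 23.5, 25.3 and 26.6 CPM after Baituling, so that CKI and Kushen overlapped and Baituling stood below both. The fold was 2.63 in CKI (log2 1.40 ± 0.05, edgeR adjusted p = 1.28e-14) and 2.65 in Kushen (log2 1.40 ± 0.05, edgeR adjusted p = 1.93e-14), each against Baituling. CKI against Kushen gave a log2 of -0.007 for GCLC (95% interval -0.11 to 0.09, edgeR adjusted p = 0.93) and 0.022 for GCLM (-0.06 to 0.10, edgeR adjusted p = 0.69). The antisense gene GCLC-AS1 had at most 5 counts in a library, with the same limit for shared exons.

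Because the subunits work as a pair, their ratio was computed per library from counts per kilobase of the canonical transcript. GCLM to GCLC was 2.75, 2.75 and 2.67 after CKI (mean 2.72 ± 0.05 SD, n = 3), 2.70, 2.71 and 2.60 after Kushen (2.67 ± 0.06) and 1.45, 1.35 and 1.34 after Baituling (1.38 ± 0.06). The ratio was therefore higher after the injections that contain Kushen, by a log2 of 0.98 for CKI and 0.95 for Kushen. An exact two-sided permutation test gave p = 0.1 for each, the smallest value that 3 libraries against 3 allow. CKI and Kushen differed by 0.029 (exact permutation p = 0.3), with 0.01 without Kushen replicate 3 and 0.044 without CKI replicate 3. NFE2L2 to KEAP1 was 0.84, 0.82 and 0.79 after CKI, 0.86, 0.72 and 0.76 after Kushen and 0.51, 0.56 and 0.53 after Baituling. Its log2 difference from Baituling was 0.61 for CKI and 0.54 for Kushen, with p = 0.1 in the exact permutation test for each, and between CKI and Kushen it was 0.072 (exact permutation p = 0.5). That last value was 0.149 without Kushen replicate 1 and 0.015 without Kushen replicate 2. These differences do not depend on the library scale, whereas the levels depend on the transcript length that is assumed: with the length of all annotated exons the mean GCLM to GCLC ratios were 5.58, 5.47 and 2.83 and the mean NFE2L2 to KEAP1 ratios 0.18, 0.18 and 0.12.

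**Figure D2:**
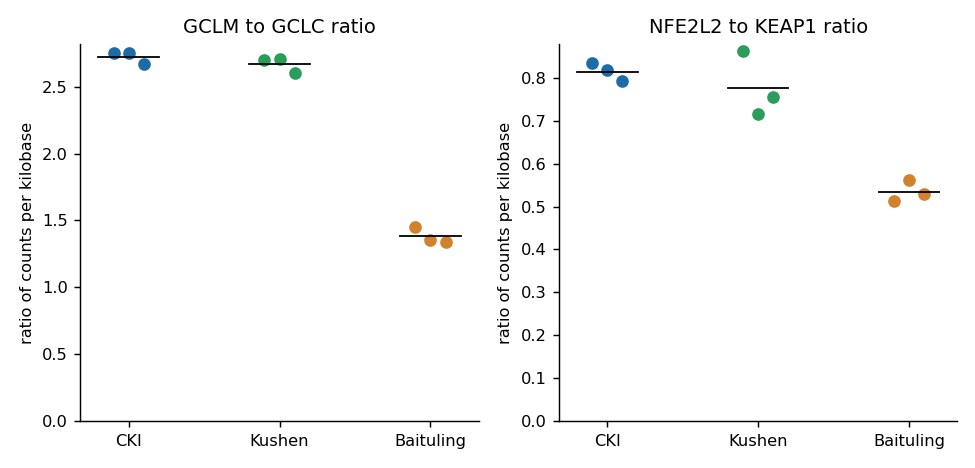
Ratio of GCLM to GCLC (left) and of NFE2L2 to KEAP1 (right) in counts per kilobase of transcript, on linear axes from 0, with 1 point per library and a bar at the mean of the 3 libraries of an injection. In both panels the 3 Baituling libraries lie below the 6 others, and CKI and Kushen overlap.

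GSR (chromosome 8, 30535583 to 30585363, minus strand), the reductase that returns oxidised glutathione to its working form, was at 96.7, 98.4 and 100.1 CPM after CKI, 97.5, 101.9 and 95.3 CPM after Kushen and 50.5, 48.1 and 52.0 CPM after Baituling. The CKI and Kushen libraries overlapped fully, with a log2 difference of 0.002 (95% interval -0.09 to 0.10, edgeR adjusted p = 0.978). Both were 1.96-fold above Baituling, at a log2 of 0.97 ± 0.05 in each comparison, with edgeR adjusted p = 5.13e-13 for CKI and 7.91e-13 for Kushen. This is just under the log2 threshold of 1. Of 16 alternative settings, GSR crossed it in 3 for CKI and in 4 for Kushen. Library totals gave 1.26 for CKI and 1.18 for Kushen. For CKI the others were the upper quartile (1.04) and at least 10 counts in every library (1.01).

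Of the thioredoxin branch, TXNRD1 (chromosome 12, 104609557 to 104744085, plus strand), the reductase that keeps cytosolic thioredoxin reduced, was the most abundant member per kilobase. Its level was 295 CPM per kb after CKI, 358 after Kushen and 115 after Baituling, which placed it at number 182, 161 and 846 among the 14164 genes with a transcript length. The libraries held 1153, 1119 and 1149 CPM after CKI, 1402, 1413 and 1325 CPM after Kushen and 438, 457 and 436 CPM after Baituling. The 3 groups were apart, and here Kushen was highest. The log2 fold change of TXNRD1 was -0.28 ± 0.04 in CKI against Kushen (edgeR adjusted p = 1.99e-05), while the gene was 2.57-fold higher in CKI than in Baituling (log2 1.36 ± 0.04, edgeR adjusted p = 2.7e-16) and 3.11-fold higher in Kushen (log2 1.64 ± 0.04, edgeR adjusted p = 3.8e-17).

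SRXN1 (chromosome 20, 627259 to 633844, minus strand), which repairs over-oxidised peroxiredoxins, went the other way between CKI and Kushen. It was at 84.6, 80.3 and 80.0 CPM after CKI, 55.3, 74.4 and 72.0 CPM after Kushen and 19.5, 17.7 and 16.6 CPM after Baituling. Kushen replicate 1 was well under the other Kushen libraries. CKI was 4.55-fold (log2 2.18 ± 0.09, edgeR adjusted p = 5.48e-14) and Kushen 3.74-fold (log2 1.90 ± 0.09, edgeR adjusted p = 7.8e-13) above Baituling. The log2 difference of CKI from Kushen was 0.28 ± 0.08 (edgeR adjusted p = 0.00776), and it fell to 0.15 (adjusted p = 0.0301) without Kushen replicate 1. Another annotated gene, ENSG00000270299, shares exons with SRXN1 on the same strand, and how the counting split such reads is not given in the sources used here.

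The other targets were NQO1 and OSGIN1. NQO1 (chromosome 16, 69743304 to 69760463, minus strand), a quinone reductase often used as the readout of NRF2, was at 187.5, 186 and 203 CPM after CKI, 236, 230.0 and 227 CPM after Kushen and 119, 119.8 and 117 CPM after Baituling. It followed TXNRD1, with Kushen highest and no overlap between groups. Its log2 fold change in CKI against Kushen was -0.27 ± 0.04 (edgeR adjusted p = 6.38e-05). Against Baituling it rose 1.62-fold in CKI (log2 0.69 ± 0.04, edgeR adjusted p = 2.26e-11) and 1.95-fold in Kushen (log2 0.96 ± 0.04, edgeR adjusted p = 2.44e-13). The Kushen value also crossed the log2 threshold of 1 with library totals (1.17) and with the upper quartile (1.03). Under either scale 7 members were called in CKI and 8 in Kushen against Baituling, in place of 6 and 6. An opposite-strand gene, ENSG00000261602, overlaps exons of NQO1.

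OSGIN1 (chromosome 16, 83986845 to 83999937, plus strand), an oxidative stress-induced growth inhibitor, had the fewest counts, 191 to 706 per library. It was at 26.3, 26.4 and 27.9 CPM after CKI, 19.1, 23.5 and 24.7 CPM after Kushen and 10.3, 11.1 and 10.5 CPM after Baituling, again with Kushen replicate 1 the lowest of its group. The rise over Baituling was 2.52-fold in CKI (log2 1.34 ± 0.09, edgeR adjusted p = 7.14e-11) and 2.10-fold in Kushen (log2 1.07 ± 0.09, edgeR adjusted p = 3.54e-09). The difference between CKI and Kushen, 0.26 ± 0.08 (edgeR adjusted p = 0.0125), no longer passed without Kushen replicate 1 (0.16, adjusted p = 0.0865). Without that library 5 of the 10 members passed in CKI against Kushen in place of 7.

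**Figure D3:**
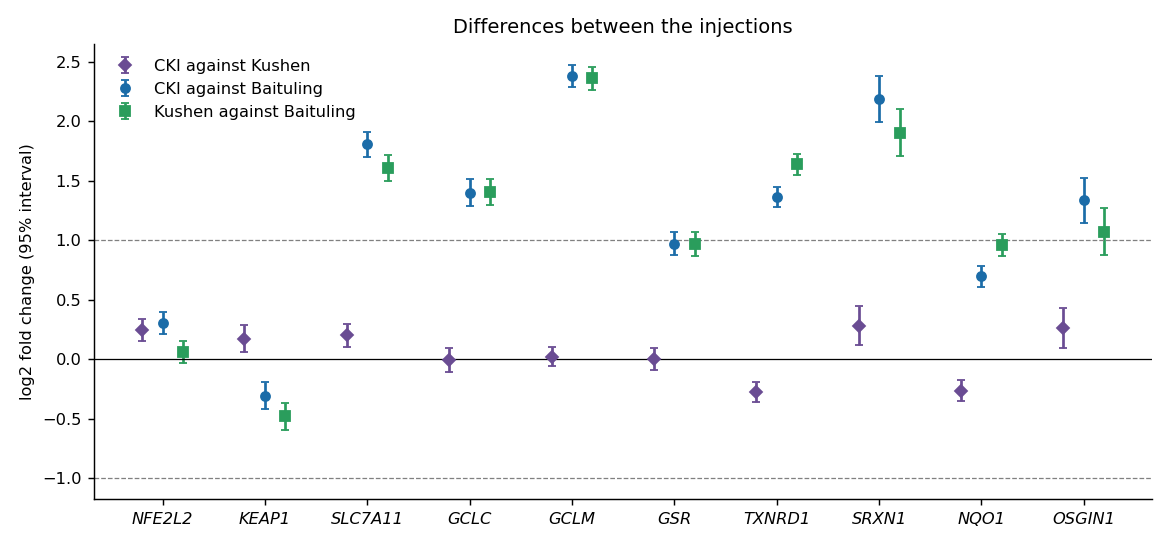
Log2 fold change of each member in the 3 comparisons, with 95% intervals from the edgeR fit of 9 libraries; the dashed lines mark log2 values of 1 and -1 and the solid line 0. The 8 targets lie between 0.69 and 2.38 for CKI and Kushen against Baituling, and all 10 genes lie between -0.28 and 0.28 for CKI against Kushen.

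Regulators around NRF2 moved less uniformly than the targets. Of 19 regulators, 8 were higher and 5 lower in CKI than in Baituling by adjusted p, with a median log2 fold change of 0.013. In Kushen 7 were higher and 5 lower than in Baituling. Among all genes tested the shares were 39.1% and 37.0% for CKI and 35.6% and 36.1% for Kushen. The counts of higher regulators were near these shares, which also apply to the lists below. With library totals the counts of higher and lower regulators became 14 and 0, and 12 and 2, so most of the lower calls depend on the scale. SQSTM1, an autophagy receptor that captures KEAP1 and is itself a target of NRF2, rose most: 874 ± 24.4 CPM after CKI, 738 ± 40.6 after Kushen and 273 ± 13.7 after Baituling (SD, n = 3). Its log2 difference from Baituling was 1.68 ± 0.05 for CKI (edgeR adjusted p = 1.8e-16) and 1.43 ± 0.05 for Kushen (edgeR adjusted p = 2.83e-15). MAFG, a small MAF partner of NRF2, was at 146 ± 3.73, 126 ± 4.47 and 69.2 ± 5.23 CPM in the same order.

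In CKI against Kushen 6 of the 19 regulators were higher and 1 was lower, where 19.6% and 20.2% of all genes were. The small MAF genes MAFF (126 against 78.3 CPM, log2 0.69 ± 0.06, edgeR adjusted p = 9e-08) and MAFK (50.9 against 34.7 CPM, log2 0.56 ± 0.07, edgeR adjusted p = 5.29e-06) rose. So did CDKN1A, a cell cycle inhibitor whose protein can also bind NRF2, at 368 ± 13.8 CPM after CKI and 223 CPM after each of the single injections. MAFF was at 133 CPM after Baituling, where it did not pass against CKI (log2 -0.08 ± 0.06, edgeR adjusted p = 0.24). BACH1, which competes with NRF2 for the ARE, was at 65.3, 57.4 and 66.7 CPM after CKI, Kushen and Baituling. CUL3 (73.8, 74.5 and 75.5 CPM), the scaffold of the ligase used by KEAP1, and the NRF2 relative NFE2L1 (432, 438 and 428 CPM) passed in none of the 3 comparisons.

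Further NRF2 targets, from a list written with earlier results of these data known, mostly followed the 8 members against Baituling. They are not a separate set: MAFG and SQSTM1 are also among the 19 regulators, and genes including TXN are also on the thioredoxin list. Of 43 such genes, 33 were higher and 6 lower in CKI by adjusted p (39.1% and 37.0% of all genes). In CKI 19 were called higher and 1 lower (11.2% and 7.91%), with a median log2 fold change of 0.82. In Kushen 36 were higher and 3 lower (35.6% and 36.1%), with 18 called higher, 1 called lower (8.50% and 6.73%) and a median of 0.86. The 3 lower ones were CBR3, TXN and SLC6A9, named after their values were seen. TXN, the thioredoxin that TXNRD1 reduces, was at 383 CPM after CKI, 447 after Kushen and 568 after Baituling. The largest rises were in aldo-keto reductases, which reduce reactive carbonyls. AKR1B10 was at 18.5 ± 0.943 CPM after CKI, 9.87 ± 1.17 after Kushen and 0.49 ± 0.195 after Baituling, and AKR1C1 at 34.4 ± 1.5, 11.1 ± 0.387 and 1.38 ± 0.227. AKR1C genes are near-identical, so counts of single AKR1C genes are uncertain. In CKI against Kushen the 43 genes split into 12 higher and 16 lower (15 and 10 with library totals), where 19.6% and 20.2% of all genes were. AKR1C1 (log2 1.63 ± 0.07, edgeR adjusted p = 7.86e-12) and AKR1C2 (log2 1.33 ± 0.12, edgeR adjusted p = 4.55e-08) were the 2 that were called, against 1.70% of all genes called higher.

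As a group the remaining glutathione genes did not follow the members. Of 34 written, 32 were tested, and ANPEP and GPX2 were below the filter. Compared with Baituling 9 were higher and 17 lower in CKI, and 13 were higher and 15 lower in Kushen. With library totals the split was 14 and 13, and 16 and 12, so no direction of this group is given. In CKI 1 was called higher and 4 lower than in Baituling (11.2% and 7.91% of all genes). In Kushen it was also 1 and 4 (8.50% and 6.73%). GSTM3, named after its values were seen, was the 1 called higher in both. It was at 116 ± 2.9, 118 ± 5.76 and 44.6 ± 2.42 CPM after CKI, Kushen and Baituling. The largest falls kept their direction under each scale. GPX1, the main cytosolic glutathione peroxidase, was at 149 ± 9.43 CPM after CKI, 219 ± 16.1 after Kushen and 886 ± 82.5 after Baituling (log2 -2.58 ± 0.07 for CKI, edgeR adjusted p = 3.84e-17, and -2.01 ± 0.07 for Kushen, edgeR adjusted p = 1.38e-15). GGT5, a glutamyltransferase that acts on glutathione outside the cell, was at 15.9 ± 1.70, 21.0 ± 2.27 and 95.3 ± 4.63 CPM. In CKI against Kushen 4 were higher and 16 lower (4 and 8 with library totals), where 19.6% and 20.2% of all genes were. The highest rise there was in SLC3A2, the heavy chain that carries SLC7A11 to the cell surface, with 513 ± 5.28 CPM after CKI, 279 ± 11.6 after Kushen and 314 ± 13.8 after Baituling (log2 0.88 ± 0.04 against Kushen, edgeR adjusted p = 2.94e-11).

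Thioredoxin and glutaredoxin genes other than the members also lacked the pattern as a group. Of 26 tested, 4 were higher and 12 lower in CKI than in Baituling, and 4 were higher and 13 lower in Kushen. In each comparison 3 were called lower, where 7.91% of all genes were for CKI and 6.73% for Kushen. Library totals turned the splits by adjusted p to 12 and 10, and 13 and 10. The largest fall was in RRM2, the ribonucleotide reductase subunit, whose role is in the supply of DNA building blocks during the cell cycle: 50.4 ± 3.26 CPM after CKI, 51.8 ± 2.63 after Kushen and 170 ± 4.71 after Baituling. In CKI against Kushen 1 was higher and 9 were lower (6 and 6 with library totals), where 19.6% and 20.2% of all genes were.

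Some members are also known to answer to ATF4, the factor of the integrated stress response, or to the aryl hydrocarbon receptor, and gene lists for these factors were read beside them. The ATF4 list includes ATF4 itself. It shares genes with the lists of further NRF2 targets and of glutathione genes, SLC6A9 and SLC3A2 among them. Of 26 genes tested from the ATF4 list, 15 were higher and 4 lower in CKI than in Kushen (19.6% and 20.2% of all genes). The median log2 fold change of the list was 0.26. DDIT3 was at 41.6 ± 1.44, 20.8 ± 1.37 and 8.97 ± 1.33 CPM after CKI, Kushen and Baituling, and ATF3 at 30.1 ± 0.597, 10.4 ± 0.621 and 12.8 ± 2.55 CPM. Against Baituling the ATF4 list split into 8 higher and 15 lower in CKI and 3 higher and 22 lower in Kushen. With library totals these splits were 10 and 12, and 3 and 16. Farthest below Baituling were SHMT2 in CKI and ATF5 in Kushen. After CKI, Kushen and Baituling, SHMT2 was at 138 ± 6.88, 159 ± 8.59 and 355 ± 14.6 CPM. ATF5 was at 10.2 ± 1.12, 8.69 ± 0.616 and 24.7 ± 2.12 CPM in the same order. Of 8 aryl hydrocarbon receptor targets, of which NQO1 and NFE2L2 are 2, 8 were higher and 0 lower in CKI than in Baituling, and 6 were higher and 1 lower in Kushen (7 and 0 with library totals), with medians of 1.67 and 1.25. The lower one was SLC7A5, an amino acid transporter gene that is also on the ATF4 list, named after its values were seen, at 632, 470.0 and 576 CPM after CKI, Kushen and Baituling. CYP1A1, a monooxygenase gene and a standard readout of that receptor, was at 156 ± 1.95 CPM after CKI, 59.2 ± 2.73 after Kushen and 2.41 ± 0.0656 after Baituling. It was thus higher in CKI than in Kushen (log2 1.39 ± 0.05, edgeR adjusted p = 3.79e-14). In that comparison NFE2L2, KEAP1, SLC7A11, SRXN1 and OSGIN1 were higher too, and TXNRD1 and NQO1 were lower. GCLC, GCLM and GSR did not pass there. The part of either factor in the levels of the members was not tested.

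**Figure D4:**
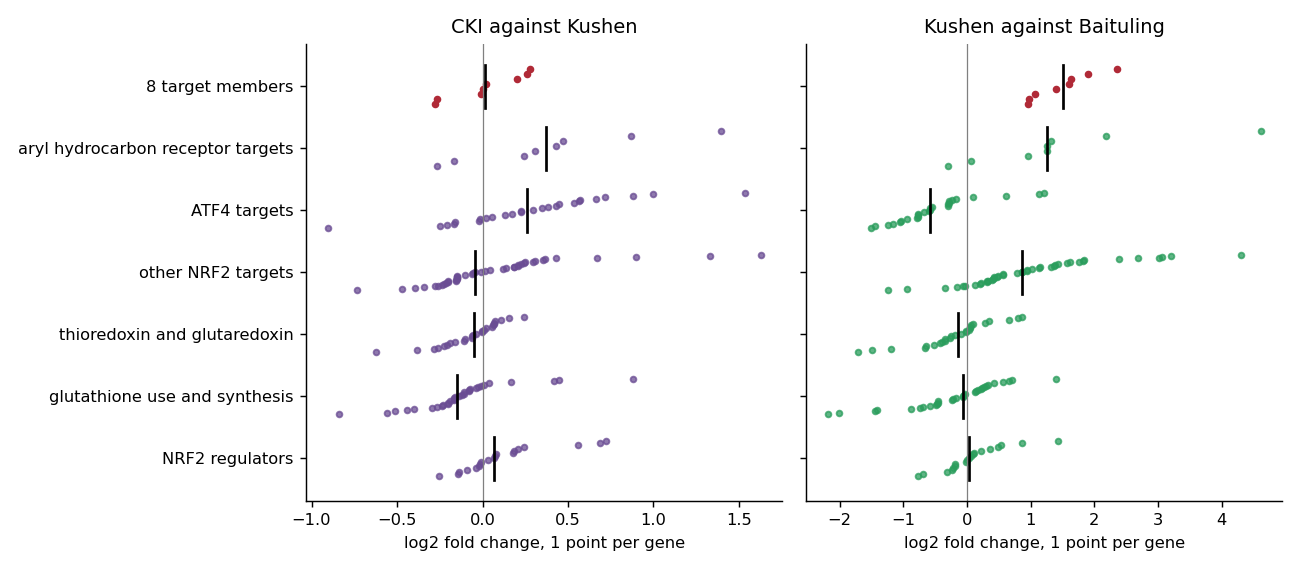
Log2 fold change of every gene of 6 lists and of the 8 target members, 1 point per gene with a bar at the median, for CKI against Kushen (left) and Kushen against Baituling (right). On the right the target members, other NRF2 targets and aryl hydrocarbon receptor targets have medians of 1.5, 0.86 and 1.25, and the medians of the other lists lie near or below 0.

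Genes whose profile over the 9 libraries was among the most like the mean profile of the 8 targets were SESN3 (Pearson r = 0.997), ANGPTL4 (0.996), HSD11B1 (0.996) and PPARA (0.996). SESN3, a sestrin, was at 34.7, 37.2 and 8.38 CPM after CKI, Kushen and Baituling, and PPARA, a nuclear receptor of lipid metabolism, at 65.5, 72.5 and 18.2 CPM. These values describe 9 libraries that fall into 2 levels, Baituling and the rest, so high values are common: 56 of the 194 genes with a comparable range had an r over 0.95. Among the members, r with that mean was 0.999 for GCLM, 0.998 for GCLC and 0.997 for GSR, down to 0.97 for OSGIN1 and 0.96 for NQO1, which are part of the mean. NFE2L2 (0.64) and KEAP1 (-0.88), which are not, had the weakest and the only negative value.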

How the data were processed

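MDA-MB-231 cells were sequenced after CKI, Kushen or Baituling, with 3 libraries each. The authors trimmed reads with Trim Galore 0.3.7 and aligned them with STAR 2.5.3a to hg19, and deposited 1 table of raw counts per gene. The counting program and its annotation are not given in the sources used here. Columns were assigned to libraries by treatment initial and replicate number. Of 24566 rows, 222 repeated an Ensembl gene with identical counts and were dropped. Symbols came from GENCODE on GRCh37 for 24224 genes and from RefSeq for 99, and 21 stayed unnamed.

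Genes passing filterByExpr of edgeR 4.0.16 (R 4.3.3; minimum count 10, minimum total 15) were kept, 14195 of 24344. TMM-scaled counts of all 9 libraries entered 1 quasi-likelihood fit on group alone. P-values are two-sided, with Benjamini-Hochberg adjustment across all tested genes, and "called" means adjusted p under 0.05 and a log2 fold change above 1 or below -1. Standard errors are the absolute log2 fold change over the square root of F. The common biological coefficient of variation was 4.53%. Chi-square per gene between replicates was 1.70 to 6.85, so no pair agreed within sampling noise, and it was highest in the pairs with Kushen replicate 1. The labels do not say whether replicates were separate cultures, so p-values measure the spread between these libraries, which may be technical. Alternatives were library totals, upper quartile, DESeq2 1.42.0, other filters, glmTreat, a replicate block, only the groups compared and leaving out each library.

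The members and lists were chosen with earlier results of these data known. Of each list the text names at most the 3 genes with the largest change per comparison among those that passed at a mean log2 CPM no lower than 1, and any NRF2 regulator. CBR3, GSTM3, TXN, SLC6A9 and SLC7A5 fall outside this rule and were named after their values were seen. Genes most like the targets were the 5 with the highest r, among those with a mean log2 CPM from 3 upward and a log2 range from 2 upward, and 1 of them is not reported here.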

Additional observations from a re-analysis of the deposited data

How the results depend on the processing

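Among the 30 member fold changes, 27 kept their direction in all 16 alternatives, leaving-out fits included; the exceptions were GCLC, GCLM and GSR in CKI against Kushen, all near 0. There GCLC turned to 0.069 with library totals, 0.003 with at least 10 counts in every library and 0.002 without CKI replicate 1. GCLM turned to -0.008 without Kushen replicate 3. GSR turned to -0.014 with DESeq2, -0.006 without a filter, -0.012 without CKI replicate 3, -0.005 without Kushen replicate 1, -0.03 without Kushen replicate 3 and -0.007 without Baituling replicate 1. Leaving out 1 library at a time gave -0.018 to 0.002 for GCLC, -0.008 to 0.032 for GCLM and -0.03 to 0.028 for GSR. None of these values passed the test. The genes called fell to 102 for CKI against Kushen, 1808 for CKI against Baituling and 1415 for Kushen against Baituling with at least 10 counts in every library, which tests fewer genes, and to 42, 1515 and 1029 with glmTreat, whose test demands a change beyond the threshold itself. The numbers with the settings of the report were 270, 2715 and 2162. Passing genes of the glutathione list in CKI against Kushen fell from 20 to 12 with library totals. Leaving out 1 library gave 265 to 300, 2677 to 2845 and 2100 to 2264 called genes, and 0, 6 and 6 to 7 called members.

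With the replicate block 269, 2713 and 2158 genes and 0, 6 and 6 members were called, and it changed no other call of a member. The labels share only replicate numbers: deviations of same-numbered libraries correlated between -0.075 and 0.123, and 2 of 9 libraries correlated best with their own number. A list or fold change close to 0 depends on the scale, and differences from untreated cells, protein levels and NRF2 activity were not measured here.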
